A study of Mus musculus with 56 samples.

Results

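Heat shock proteins and their cochaperones were followed through the day in mouse gastrocnemius, a calf muscle of mixed but mainly fast fibres. The members were all genes of the deposited table whose symbol belongs to the Hspa, Hspb, Hsp90, Hspd1, Hspe1, Hsph1, Dnaja, Dnajb, Dnajc, Cct2 to Cct8 or Bag series, without pseudogenes. That rule found 87 of 19072 genes and used no measured value. A read count could be recovered for 84 of them, and 76 had a mean of at least 1 CPM (counts per 1000000 of the authors' library size) and entered the tests. The 11 that did not were Cct6b, Cct8l1, Dnajb3, Dnajb7, Dnajb8, Dnajb13, Dnajc5b, Dnajc5g, Dnajc6, Dnajc22 and Hspb9.

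The muscles came from female C57BL/6J mice, 9 weeks old, housed in a cycle of 12 h light and 12 h dark. All ate chow freely for 7 days, and then for 7 days either by day only (daytime-restricted feeding, DRF) or by night only (nighttime-restricted feeding, NRF). Muscle was taken every 4 h from Zeitgeber time 0 (ZT0; by convention, ZT0 to ZT12 is the light phase) to ZT24, with 4 libraries for each of the 14 combinations of regimen and time. Nothing in the labels says that the 4 libraries of a group are 4 mice, so p-values measure the spread between libraries.

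Chaperones bind unfolded or partly folded proteins and release them in cycles of ATP hydrolysis. HSP70 proteins are loaded by J-domain proteins (the DNAJ families) and emptied by nucleotide exchange factors of the HSP110 and BAG families. HSP90 finishes the folding of kinases and steroid receptors, the CCT ring folds actin and tubulin, and the small HSPs hold unfolding proteins without ATP. In muscle these systems maintain the sarcomere, and many of the genes are switched on by heat, exercise or other protein damage through the transcription factor HSF1. The chaperones of the endoplasmic reticulum (ER) answer to a separate programme, the unfolded protein response.

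Promoter windows near the gene start were searched for an exact form of the recognition sequence of each of those 2 programmes. Looser forms were not searched, so a member without a match may still carry such a sequence. Members without a window could not be searched. RefSeq windows (build GRCm38.p6) of 250 bases before to 50 after a start were found for 71 members and searched on both strands. The heat shock element searched was GAA, any 2 bases, TTC, any 2 bases and GAA. The ER stress element was CCAAT and CCACG with any 9 bases between, and no member had a match to both elements. The heat shock element was in 4 of the 71 members, Hspd1, Hspe1, Hsph1 and Dnajb6 (5.63%), and in 0.662% of the 27025 genes with a window. The ER stress element was in 3 members, Hspa5, Hsp90b1 and Dnajc3 (4.23%), and in 0.137% of the 27025 genes. The 4 windows below are shown because each holds one of these motifs and the daily values of its gene are given further on; capitals mark the matched motif, and a match is a description of the letters only. Hspd1 and Hspe1 encode the 2 parts of the mitochondrial chaperonin and lie head to head. The Hspd1 matches lay in the window of an alternative RefSeq start, and another window of Hspd1 held no match. Between that alternative start and the Hspe1 start are 216 bases. The windows of these 2 starts share 285 bases and the same pair of overlapping heat shock elements. The Hspe1 window lies at chr1:55087898-55088197 on the plus strand, with its motif matches starting 89 and 84 bases before the gene start. The windows with an ER stress element lie at chr2:34771840-34772139 (plus strand, Hspa5, 65 bases before the start), chr10:86705395-86705694 (minus strand, Hsp90b1, 212 and 107 bases before) and chr14:118937682-118937981 (plus strand, Dnajc3, 105 bases before).
Hspe1: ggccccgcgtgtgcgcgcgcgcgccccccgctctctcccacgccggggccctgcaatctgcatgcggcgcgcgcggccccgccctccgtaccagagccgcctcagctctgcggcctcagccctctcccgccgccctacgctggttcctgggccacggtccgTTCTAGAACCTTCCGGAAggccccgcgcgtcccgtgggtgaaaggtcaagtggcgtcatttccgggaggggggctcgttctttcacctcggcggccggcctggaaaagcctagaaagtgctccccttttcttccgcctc
Hspa5: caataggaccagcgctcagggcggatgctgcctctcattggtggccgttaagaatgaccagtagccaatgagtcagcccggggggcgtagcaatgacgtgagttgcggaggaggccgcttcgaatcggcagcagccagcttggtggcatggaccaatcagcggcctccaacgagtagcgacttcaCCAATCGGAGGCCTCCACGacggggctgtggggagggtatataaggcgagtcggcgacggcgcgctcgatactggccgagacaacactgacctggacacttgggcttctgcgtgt
Hsp90b1: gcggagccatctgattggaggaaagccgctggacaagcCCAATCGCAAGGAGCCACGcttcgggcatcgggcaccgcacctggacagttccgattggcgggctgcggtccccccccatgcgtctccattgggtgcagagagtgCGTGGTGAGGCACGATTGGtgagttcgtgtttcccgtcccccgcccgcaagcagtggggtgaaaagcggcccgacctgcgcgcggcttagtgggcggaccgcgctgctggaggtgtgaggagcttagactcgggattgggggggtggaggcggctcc
Dnajc3: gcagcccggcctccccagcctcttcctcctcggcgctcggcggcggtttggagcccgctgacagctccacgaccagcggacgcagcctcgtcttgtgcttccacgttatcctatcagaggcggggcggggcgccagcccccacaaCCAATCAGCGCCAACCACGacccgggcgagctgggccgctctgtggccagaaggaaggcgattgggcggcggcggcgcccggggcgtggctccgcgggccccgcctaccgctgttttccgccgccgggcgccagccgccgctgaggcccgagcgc

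Depth was similar in all libraries, at 28173234 to 36183625 recovered reads. The library size of the authors, by which CPM were taken, was 0.854 to 1.21 times the recovered reads. That ratio differed between groups, at 0.854 to 0.952 in DRF ZT16 and 1.06 to 1.21 in NRF ZT0, so CPM differ from scaling to total counts. Epidermal markers were near 0 (summed 0.529 to 1.47 CPM, with 3 of 4 at 0), and skeletal muscle markers summed to 104546 to 229110 CPM. The DRF ZT20 replicate 1 library stood apart, with a typical deviation from its group mean of 0.407 on the log2 scale against 0.12 to 0.279 in the other 55. The level of long genes relative to short ones was lowest at ZT16 and ZT20 in DRF (mean slopes of -0.0589 and -0.0639 on the log2 scale per doubling of length, against -0.0018 to 0.0433 in the NRF groups). Summed markers of slow muscle fibres (Myh7, Tnnt1, Myl2 and Tnni1) ran from 12.4 to 2875 CPM across libraries. Reads of near-identical genes cannot be split safely: 12 tested members had fractional counts, among them Hspa1a, Hspa1b, Hspa1l, Hspb2, Dnajb6, Dnajb14, Dnajc1, Dnajc19 and Cct8, and their values are uncertain. Fewer cells of a type and less RNA per cell cannot be told apart in whole muscle.

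Levels were scaled per kilobase of the gene length recovered from the deposited score, which may differ from the transcript length. On that scale the small HSP Hspb6 was the most abundant member (462 CPM per kb). Hsp90ab1 (380), the constitutive HSP70 gene Hspa8 (346) and Hspb8 (191) followed. Within families these length-scaled levels were steeply graded. Among HSP70 genes the mitochondrial Hspa9 stood at 127, the ER member Hspa5 at 41.1 and the stress-inducible Hspa1a and Hspa1b at 3.88 and 2.38 CPM per kb. Among CCT subunits Cct6a led with 121 and Cct3 was lowest of the tested ones with 11.4. Their recovered lengths were 1000 and 6370 bases, so this order depends on the lengths. In CPM the tested subunits ran only from 72.4 (Cct3) to 138 (Cct5), with Cct6a at 121. Dnaja2 (72.2) and Dnajb5 (41.4) were the most abundant J-domain genes, and Hspd1 stood at 71.7 against 29.2 CPM per kb for its partner Hspe1. Bag1 (109) and Bag3 (66.0) led the BAG family.

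**Figure D1:**
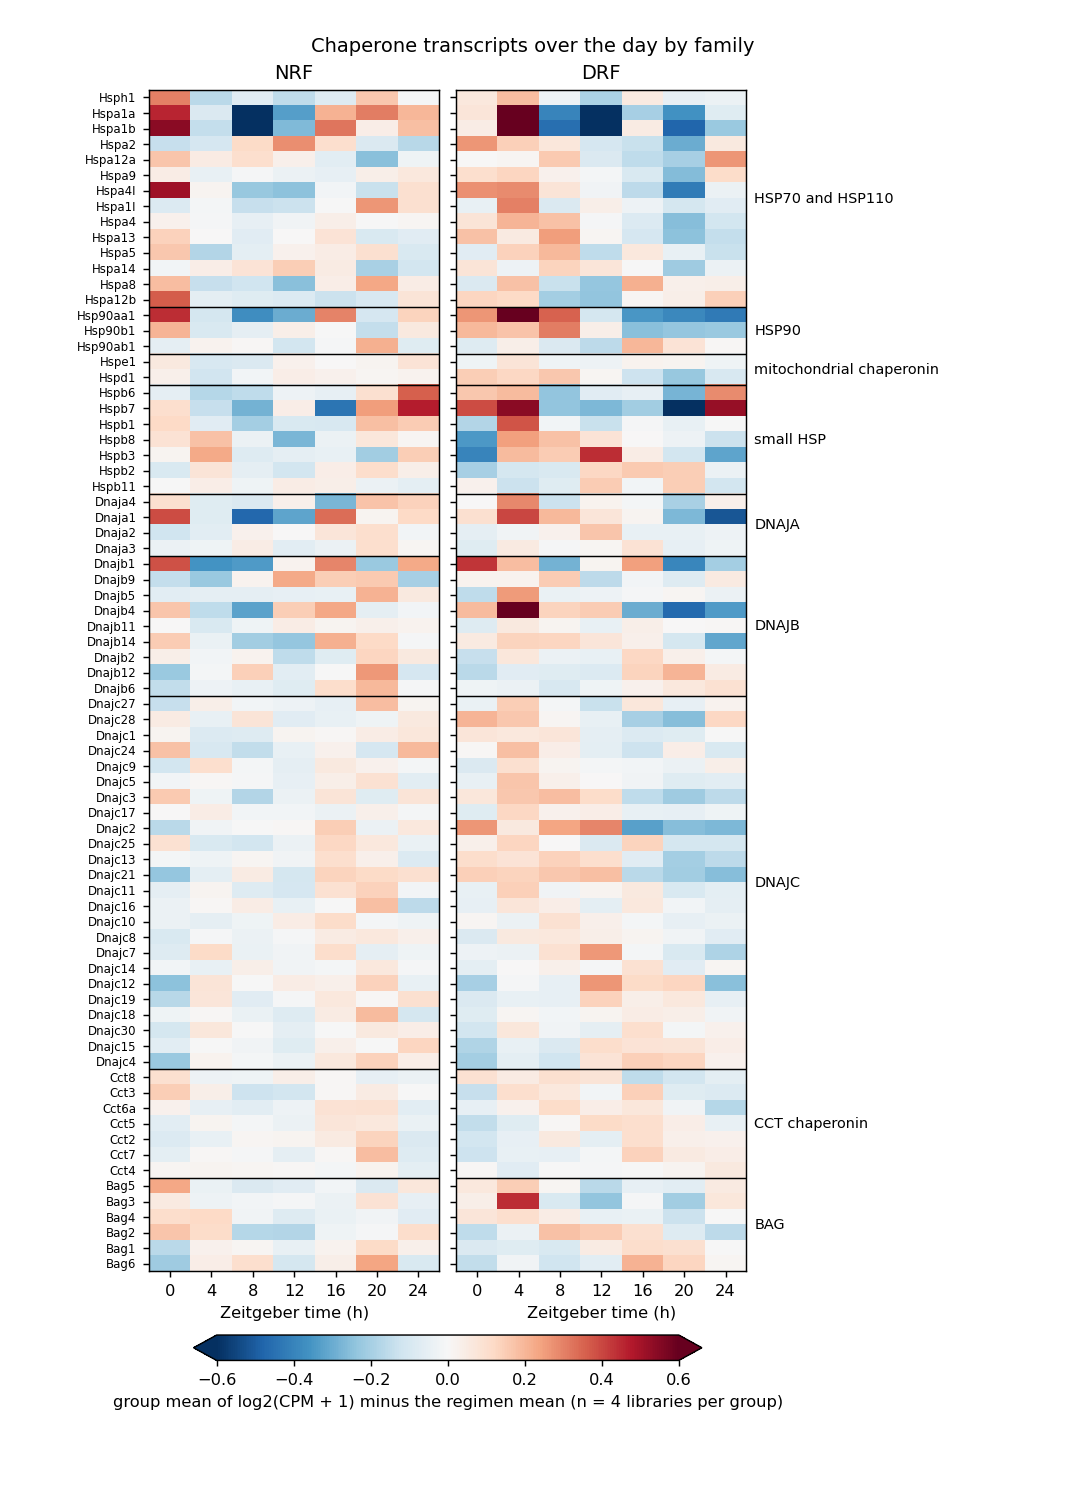
Heat map of the 76 tested members, by family and, within a family, by fitted peak in DRF. Columns are times in NRF (left) and DRF (right); colour is the group mean of log2(CPM + 1), n = 4 libraries, minus the mean of that regimen, with colours saturating at 0.6. In DRF the darkest reds are at ZT4 (Hspa1a, Hspa1b, Hsp90aa1, Dnajb4), where the NRF panel is pale or blue for the same genes; in NRF these genes are red at ZT0 and ZT16.

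Daily rhythms were tested by fitting a 24 h cosine to log2(CPM + 1) in limma, with Benjamini-Hochberg adjustment over 12025 genes and a threshold of 0.05. In NRF 9 of 76 members passed, against 15.1% of all genes. In DRF 33 passed (43.4%), against 48.7% of all genes, and 19 of these 33 calls stood without any single library. The share of rhythmic members was below that of all genes in both regimens; the difference between these shares was not tested. The HSP70 and HSP110 family held 8 of 14 rhythmic members in DRF and the BAG family 4 of 6. HSP90 held 2 of 3, DNAJC 10 of 24, CCT 3 of 7 and the small HSPs 3 of 7. The mitochondrial chaperonin held 1 of 2, DNAJA 1 of 4 and DNAJB 1 of 9. The median fitted peak-to-trough size on the log2 scale was 0.144 in NRF and 0.22 in DRF over the members, and 0.161 and 0.262 over all tested genes. Leaving out NRF ZT0 replicate 2 lowered the NRF count to 5, and no other single library moved either count by over 1.5 times.

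For 15 of the 76 tested members (19.7%) the rhythm itself differed between regimens, against 13.1% of all genes. By fitted peak-to-trough size, 10 of the 15 stood higher in DRF and 5 in NRF (9.06% and 4.07% of all genes). The side of this size difference moved with the processing: 12 were larger in DRF with scaling to total counts, where Hspa5, Dnaja1 and Dnajb14 changed to that side and Bag2 to the other, and 8 with the slow-fibre score described below as a covariate. All 15 had fitted peaks more than 6 h apart, with a median gap of 10.4 h. Of the 1578 genes with a rhythm difference, 65% had peaks more than 6 h apart, and their median gap was 7.47 h. In NRF 13 of the 15 peaked in the dark phase, and in DRF 0 did. Of the 1578 genes, 34% had a fitted peak in the dark phase in NRF and in the light phase in DRF. Among the 15, only Bag2, Cct3, Dnaja1, Dnajb14 and Dnajb9 had a called rhythm in NRF. The NRF peaks of the others are poorly determined. Over all 76 tested members, called or not, 46 (60.5%) had a fitted peak in the dark phase in NRF and in the light phase in DRF, a combination found in 18.9% of all tested genes. Among the 33 rhythmic members of DRF, 18 peaked between ZT3 and ZT9 (54.5%), against 33.6% of all genes rhythmic in DRF. The gene lists and these windows were chosen with the values known, and the shares are a description.

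**Figure D2:**
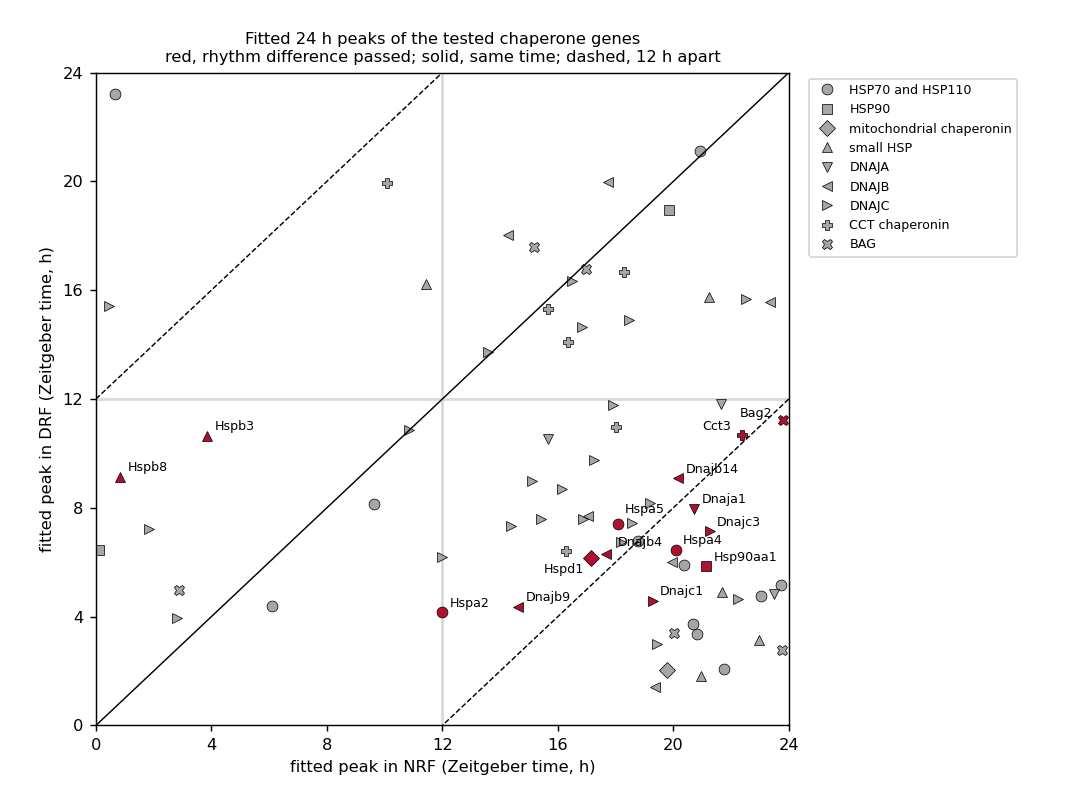
Fitted 24 h peak time of each of the 76 tested members in NRF (x axis) and DRF (y axis), in hours of Zeitgeber time, with symbols by family; peaks of genes without a called rhythm are poorly determined. Red symbols mark the 15 members whose rhythm differed between regimens: most lie near the dashed line of a 12 h gap, and the members near the solid line had close fitted times.

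A further test, added after these gaps were seen, asked whether the DRF rhythm differed from the NRF rhythm moved by 12 h, the shift from night to day. Of the 15 members whose rhythms differed, 3 still differed after the move, Dnajb9, Hspa4 and Hspb3, while 59.9% of the 1578 genes did. In all, 20 members (26.3%) differed from the moved rhythm, against 45.8% of all genes. A p that misses the threshold does not show that the moved rhythms were alike. The remaining 17 of the 20 were members whose DRF rhythm differed from the moved NRF rhythm and not detectably from the unmoved one. They include Hspa8, Hspa14, Bag5, Dnajc4, Dnajc7, Dnajc12 and Dnajc28, with adjusted p (limma) between 0.000214 and 0.0164 for the moved test. Of these 7 calls, that of Dnajc4 ended with scaling to total counts (adjusted p = 0.414) and those of Dnajc7 (0.0646), Dnajc12 (0.13) and Dnajc28 (0.0503) with the slow-fibre score as a covariate.

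The stress-inducible HSP70 genes Hspa1a and Hspa1b, which encode almost the same protein, rose at ZT4 in DRF. The CPM of Hspa1b at ZT4 were 45.01, 11.2, 35.2 and 10.05 in DRF, and 4.83, 7.99, 2.13 and 4.11 in NRF. All 4 DRF libraries were above all 4 NRF libraries, and among themselves the DRF libraries fell into a higher pair, replicates 1 and 3, and a lower pair. The same pair was the highest in DRF at ZT4 for Hspa1a, Hsp90aa1, Dnajb4 and Dnaja1. For Hspa4, Bag3 and Dnajb9 it was not. The ZT4 values of the genes that share this pair are thus not independent of each other. For Hspa1a the ZT4 values were 72.1, 21.7, 53.2 and 17.3 CPM in DRF, and 9.53, 15.8, 3.94 and 6.67 CPM in NRF, again without overlap. At the other times Hspa1b ran from 1.72 to 12.7 CPM over both regimens. On the log2 scale the ZT4 difference was 2.02 ± 0.4 (SE, adjusted p = 0.00521, limma) for Hspa1b and 1.99 ± 0.428 (adjusted p = 0.00869) for Hspa1a.

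At ZT4, 6 members passed in all, each higher in DRF, against 0.973% of all genes called and 0.674% called higher. Hspa1b was the only call at ZT4 that stood without any single library, at an adjusted p of up to 0.0482. The Hspa1a call ended without DRF ZT4 replicate 1 (adjusted p = 0.0888) or 3 (0.0549), or NRF ZT4 replicate 3 (0.0847) or 4 (0.0504), and with the deposited score itself on a log2 scale (0.0544). The other 4 were Dnajb4, Dnajb5, Dnajb9 and Hspa5, with differences of 0.29 to 0.65 on the log2 scale (that of Dnajb4 at an adjusted p of 0.203 with scaling to total counts), and the count fell to 1 or 2 without any of those 4 libraries. Slow-fibre markers were similar at ZT4, with a median sum of 1521 CPM in DRF and 1477 CPM in NRF, although 1 NRF library stood at 51.7. Hspa1a followed those markers within groups (r = 0.633 over 56 libraries, given with the other slow-fibre relations below). With the slow-fibre score as a covariate the ZT4 difference was 1.75 for Hspa1a and 1.84 for Hspa1b on the log2 scale (adjusted p = 0.00305 for each).

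The HSP110 gene Hspa4, an exchange factor that empties HSP70, had the smallest rhythm p of all members in DRF. Its CPM in DRF were 143, 127, 124 and 130 at ZT4 and 82.0, 103, 101.4 and 94.8 at ZT20. In NRF they were 118, 119, 117 and 114 at ZT4 and 115, 126, 123 and 107 at ZT20. The DRF times did not overlap, and the NRF times did. Fitted peak-to-trough size was 0.42 on the log2 scale in DRF, peaking at ZT6.46 (adjusted p = 7.79e-07), and 0.06 in NRF (adjusted p = 0.762). The rhythms differed (adjusted p = 0.000208), and Hspa4 in DRF also differed from the moved NRF rhythm (adjusted p = 0.00158).

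The constitutive HSP70 gene Hspa8, the most expressed member in CPM, behaved otherwise. Its NRF values were 1181, 1320, 1097 and 1189 CPM at ZT12 and 1497, 1718, 1532 and 1969 CPM at ZT20, and the 2 times did not overlap. Hspa8 was rhythmic in NRF (peak-to-trough 0.42 on the log2 scale, peak at ZT20.9, adjusted p = 0.00584) and not detectably in DRF (0.17, adjusted p = 0.319). The DRF group means of Hspa8 were high at ZT4 (1723 ± 115 CPM, SD, n = 4) and at ZT16 (1775 ± 234), and low at ZT12 (1299 ± 80.5). The 12 h component of Hspa8 in DRF passed at an adjusted p of 0.031, but the call ended without any of 7 libraries (adjusted p of up to 0.0747, without DRF ZT16 replicate 2) and with scaling to total counts (0.219). Those 7 were DRF ZT4 replicates 1, 3 and 4, DRF ZT12 replicates 2 and 3, and DRF ZT16 replicates 1 and 2.

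A 12 h component, fitted as 2 cycles a day beside the 24 h terms, passed in DRF for 5 members (6.58%), against 1.66% of all genes. In NRF it passed for 3, against 4.44%. The term alone does not show 2 highs a day, since 1 sharp high in a day also adds to it. The high of Hspa1b in DRF was at ZT4, as given above. The 5 were Hspa1a, Hspa1b, Hspa5, Hspa8 and Cct3; Hspa1b was the call that stood without any single library (adjusted p = 0.00536, at most 0.0297). Without DRF ZT4 replicate 1 the count of 5 fell to 1, and without DRF ZT20 replicate 1 it rose to 9. It was 2 without DRF ZT4 replicate 3 or DRF ZT12 replicate 3, and 3 without DRF ZT4 replicate 4, DRF ZT12 replicate 1, 2 or 4, or DRF ZT16 replicate 2. In NRF the component passed for Bag6, Dnajb12 and Hsp90ab1. The Hsp90ab1 call (0.24 on the log2 scale, adjusted p = 0.0361) ended with scaling to total counts (0.07, adjusted p = 0.619) or quantiles (0.05, adjusted p = 0.746), and all 3 ended without the ZT0 groups (adjusted p = 0.0609, 0.0609 and 0.107). That count was 1 without NRF ZT20 replicate 4, 7 without NRF ZT12 replicate 4, and 5 without NRF ZT8 replicate 3, NRF ZT12 replicate 2 or NRF ZT24 replicate 1.

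Of the remaining HSP70 and HSP110 genes, Hspa13, an ER-associated HSP70, was rhythmic in DRF with a peak at ZT6.78 (peak-to-trough 0.38 on the log2 scale, adjusted p = 0.00797). Hspa9, Hspa4l, Hspa12b and Hspa14 also passed in DRF, with adjusted p (limma) of 0.0163 to 0.031. Leaving out a single library ended each of these 4 calls: DRF ZT4 replicate 1 (adjusted p = 0.0527) or DRF ZT16 replicate 3 (0.06) for Hspa9, and DRF ZT16 replicate 3 (0.063) for Hspa4l. For Hspa12b they were DRF ZT0 replicate 3 (0.0718), DRF ZT8 replicates 1, 2 and 4 (0.0503 to 0.054) and DRF ZT12 replicate 1 (0.0961), and for Hspa14 DRF ZT8 replicate 1 (0.0599) and DRF ZT20 replicates 1 (0.0862) and 2 (0.0948). Hspa14, a ribosome-associated HSP70, passed in NRF as well, with fitted peaks at ZT9.62 in NRF and ZT8.14 in DRF; its NRF call ended with scaling to total counts (adjusted p = 0.149). The testis-enriched Hspa2 passed the test of the rhythm difference narrowly (adjusted p = 0.0465), a call that ended without any of 28 libraries. Its sizes differed by 0.01 on the log2 scale (DRF minus NRF), and without the ZT0 groups by -0.05 (adjusted p = 0.121). Hsph1, the third HSP110 gene and a carrier of the heat shock element, did not pass in NRF (adjusted p = 0.053) or in DRF (0.325).

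Of the 2 cytosolic HSP90 genes, the stress-inducible one was rhythmic in DRF. The CPM of Hsp90aa1, that isoform, were 116, 55.9, 82.9 and 70.1 at ZT4 in DRF and 51.7, 41.0, 25.5 and 41.6 at ZT16. In NRF they were 61.8, 58.7, 50.2 and 52.3 at ZT4 and 65.3, 97.6, 59.5 and 78.6 at ZT16. At ZT16 every NRF library was above every DRF library, and at ZT4 the regimens overlapped. Hsp90aa1 peaked at ZT5.85 in DRF with a peak-to-trough size of 1.00 on the log2 scale (adjusted p = 0.000764). In NRF the fitted peak lay at ZT21.1 with a size of 0.57 (adjusted p = 0.102, and 0.00974 without NRF ZT20 replicate 4), and the rhythms differed (adjusted p = 0.00216). The difference at ZT16 was -0.91 ± 0.232 on the log2 scale (SE, adjusted p = 0.0171), a call that ended without DRF ZT16 replicate 3 (adjusted p = 0.106) or NRF ZT16 replicate 2 (0.0589).

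Hsp90ab1, the constitutive isoform and by far the more abundant, passed neither rhythm test (adjusted p = 0.605 in NRF and 0.0953 in DRF), although in DRF it passed without the ZT0 groups (0.0464) and with a 12 h harmonic in the fit (0.0174). Its group means ran from 1019 ± 117 to 1273 ± 112 CPM (SD, n = 4) in NRF and from 1052 ± 56.7 to 1345 ± 80 CPM in DRF. At ZT16 Hsp90ab1 stood at 1397, 1399, 1354 and 1229 CPM in DRF and at 1041, 1067, 1118 and 1136 in NRF, without overlap. That call (0.30 ± 0.0784, SE, adjusted p = 0.0183) ended without DRF ZT16 replicate 2 (adjusted p = 0.0563) or 3 (0.0709) or NRF ZT16 replicate 1 (0.0508). It also ended with scaling to total counts (0.15, adjusted p = 0.164) or quantiles (0.13, adjusted p = 0.114). Hsp90b1, the ER isoform, was rhythmic in DRF (peak-to-trough 0.56 on the log2 scale, peak at ZT6.44, adjusted p = 0.005). Its rhythm difference missed the threshold (adjusted p = 0.109), and passed without NRF ZT20 replicate 4 (0.019).

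**Figure D3:**
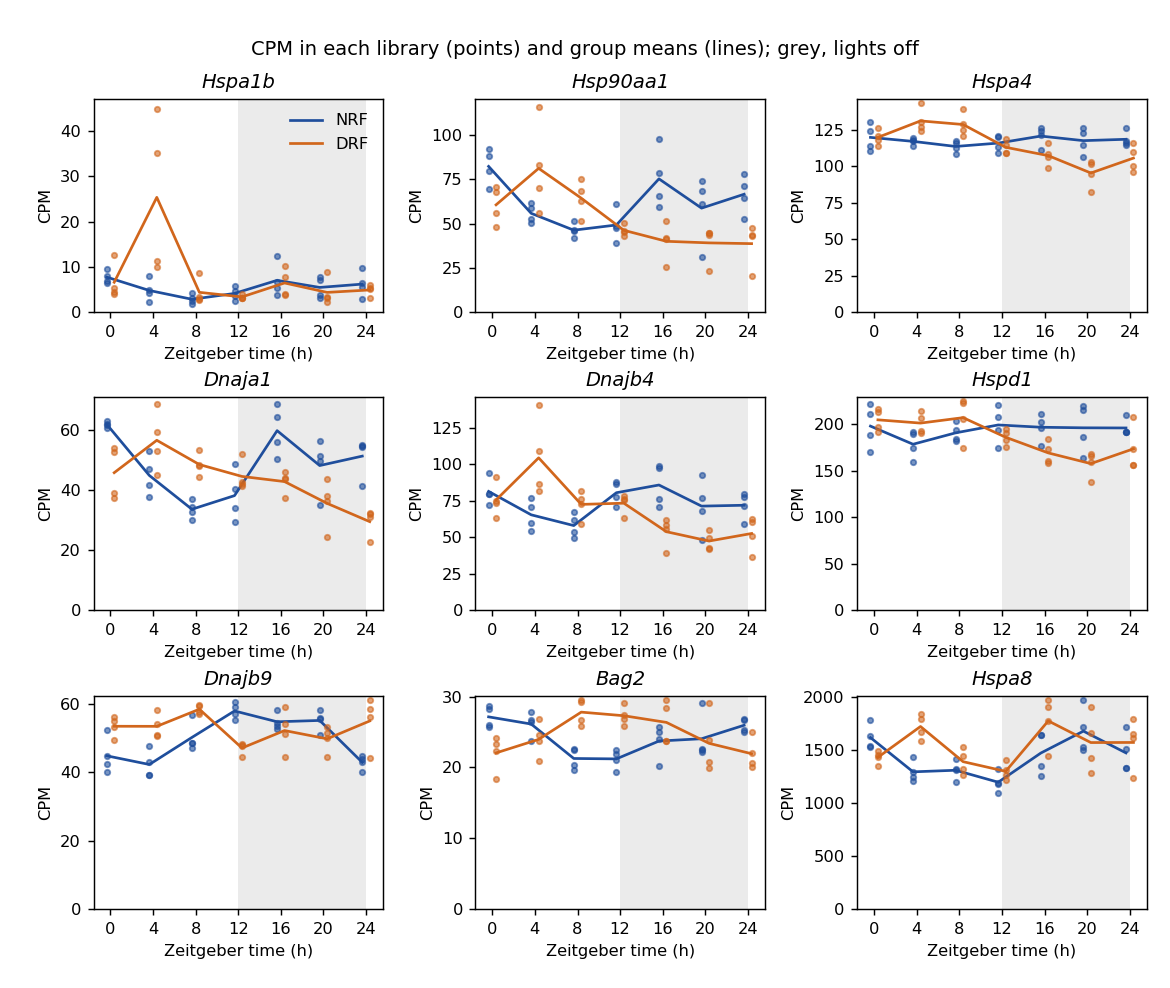
CPM of 9 members by time (x axis, hours of Zeitgeber time) in NRF (blue) and DRF (orange); points are libraries, lines join the means of 4 libraries, and the grey band is the dark phase. Hspa1b stands out at ZT4 in DRF, Hsp90aa1, Dnaja1 and Dnajb4 cross between regimens, and Hspa8 runs higher at ZT16 to ZT24 than at ZT12 in both.

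Of the 2 genes of the mitochondrial chaperonin, which share the promoter region shown above, Hspd1 was rhythmic in DRF and Hspe1 was not detectably so. Hspd1, which encodes the HSP60 barrel, stood at 223, 175, 206 and 224 CPM at ZT8 in DRF and at 138, 168, 166 and 159 CPM at ZT20, without overlap. In NRF it stood at 182, 184, 204 and 193 CPM at ZT8 and at 186, 219, 215 and 163 at ZT20. Hspd1 was rhythmic in DRF (0.37 on the log2 scale, peak at ZT6.15, adjusted p = 0.000831) and differed between regimens (adjusted p = 0.00846). Hspe1, which encodes the lid, had DRF group means between 42.8 and 46.2 CPM, and its fitted size was 0.02 (adjusted p = 0.979). The difference in rhythm between the 2 genes was not tested. Of the 8 tested mitochondrial members on the list used, 3 were rhythmic in DRF (37.5%, against 48.7% of all genes) and 0 in NRF (against 15.1%) in limma, with 1 at an unadjusted p under 0.05 in NRF.

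J-domain proteins deliver clients to HSP70 and set its ATPase going. Among their genes Dnaja1 and Dnajb4, whose proteins are cytosolic, had rhythms that differed between DRF and NRF. Dnaja1 stood at 61.6, 62.8, 60.7 and 62.0 CPM at ZT0 in NRF and at 37.0, 34.4, 32.8 and 30.2 CPM at ZT8. In DRF it stood at 68.5, 45.1, 59.4 and 53.0 at ZT4 and at 31.9, 32.4, 31.0 and 22.7 at ZT24. At ZT24 the NRF libraries held 41.3, 54.8, 54.5 and 54.3 CPM, all above the DRF ones. Dnaja1 was rhythmic in both regimens, with a peak at ZT20.7 and a size of 0.68 on the log2 scale in NRF (adjusted p = 0.00284). In DRF the peak was at ZT7.96 and the size 0.56 (adjusted p = 0.0105). The rhythms differed (adjusted p = 0.000274) and, after the move by 12 h, no difference was detected (adjusted p = 0.728). The ZT24 difference of -0.78 ± 0.152 (SE, adjusted p = 0.0011) stood without any single library, at an adjusted p of up to 0.0155.

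Dnajb4, a partner of inducible HSP70, peaked at ZT6.32 in DRF with a size of 0.89 on the log2 scale (adjusted p = 0.000134). Its ZT4 values were 141, 81.7, 109 and 86.3 CPM in DRF and 71.0, 76.8, 54.1 and 59.7 CPM in NRF. At ZT16 the order was turned, with 61.7, 58.5, 39.3 and 55.9 CPM in DRF and 99.0, 97.1, 70.9 and 76.2 CPM in NRF. Neither time had overlapping regimens, and the rhythms of Dnajb4 differed (adjusted p = 0.000583). Its rhythm in NRF did not pass (adjusted p = 0.261, limma), so its NRF peak is poorly determined. The classic heat-inducible partner Dnajb1 did not pass in either regimen (adjusted p = 0.268 in NRF and 0.941 in DRF), with 5.01 to 18.2 CPM over the DRF libraries.

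Of the 24 tested DNAJC genes, 10 were rhythmic in DRF (41.7%, against 48.7% of all genes) and 0 in NRF in limma (against 15.1%), with 2 at an unadjusted p under 0.05 in NRF. Dnajc7, which bridges HSP70 and HSP90, stood at 86.7, 89.7, 94.3 and 91.6 CPM at ZT12 in DRF and at 67.9, 69.3, 65.5 and 62.4 at ZT24. Its fitted peak was at ZT10.9 in both regimens, with a size of 0.31 on the log2 scale in DRF (adjusted p = 0.00207) and 0.04 in NRF (0.921). Dnajc12, a cochaperone of the aromatic amino acid hydroxylases, peaked in DRF at ZT13.7 (0.40 on the log2 scale, adjusted p = 0.00556), with a fitted NRF peak at ZT13.6 (adjusted p = 0.66). Dnajc28 and Dnajc4 peaked in DRF at ZT3.93 and ZT16.3, and the Dnajc4 call ended with scaling to total counts (adjusted p = 0.407) or without the gene-length trend (0.179). Dnajc5, the cysteine string protein of synaptic vesicles, peaked in DRF at ZT6.75 (adjusted p = 0.02, and 0.0529 without DRF ZT4 replicate 1). Its fitted NRF peak lay at ZT18.2 (adjusted p = 0.65), and its rhythm difference missed the threshold (adjusted p = 0.0553). The NRF peaks of Dnajc7, Dnajc12 and Dnajc5 are poorly determined, since none of these genes had a called rhythm in NRF.

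On the list of 9 ER members, 4 were rhythmic in DRF (44.4%, against 48.7% of all genes) and 1 in NRF (11.1%, against 15.1%). The rhythm difference passed for 4 (44.4%, against 13.1%), Dnajb9, Dnajc3, Hspa5 and Dnajc1. The Dnajc1 call (adjusted p = 0.0465, limma) ended without any of 28 libraries, at up to 0.0903 without NRF ZT4 replicate 2. It also ended with the gene-length trend removed (0.152), and the Hspa5 call ended under alternatives given below. Dnajb9, a J-domain partner of BiP that the unfolded protein response induces, was the member with the smallest rhythm p in NRF. It stood in NRF at 39.1, 43.0, 47.9 and 39.4 CPM at ZT4 and at 60.5, 55.4, 57.1 and 59.1 CPM at ZT12, without overlap. In DRF it stood at 58.2, 50.9, 50.8 and 54.3 CPM at ZT4 and at 48.0, 47.8, 44.6 and 48.3 CPM at ZT12. Dnajb9 peaked in NRF at ZT14.6 with a size of 0.46 on the log2 scale (adjusted p = 2.72e-06), against 0.17 in DRF (adjusted p = 0.106), and the rhythms differed (adjusted p = 3.64e-05). The DRF rhythm of Dnajb9 passed with scaling to total counts (size 0.37, adjusted p = 0.00178), with library weights (0.0254), with the gene-length trend removed (0.0267) and without DRF ZT16 replicate 3 (0.0346). Dnajb11, another J-domain partner of BiP, passed in neither (adjusted p = 0.342 in NRF and 0.889 in DRF), and passed in DRF with scaling to total counts (size 0.21 against 0.02, adjusted p = 0.0351).

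The 3 members with an ER stress element in the window shown above had fitted DRF peaks within 1 h of each other. Hsp90b1 peaked at ZT6.44, Dnajc3 at ZT7.14 and Hspa5 at ZT7.40. ER-list members with no match found had fitted DRF peaks at similar times, ZT6.78 (Hspa13), ZT7.43 (Dnajc25) and ZT7.71 (Dnajb11). The others lay at ZT4.36 (Dnajb9), ZT4.59 (Dnajc1) and ZT8.97 (Dnajc10). Members with a heat shock element had ZT2.02 (Hspe1), ZT2.08 (Hsph1), ZT6.15 (Hspd1) and ZT20.0 (Dnajb6). Among these genes without an ER stress element, only Hspa13, Dnajc1 and Hspd1 had a called DRF rhythm. Dnajc3, an inhibitor of the kinase PERK and a BiP partner, stood at 45.4, 49.5, 48.0 and 49.0 CPM at ZT8 in DRF and at 42.1, 39.3, 41.9 and 39.6 CPM in NRF, without overlap. Its rhythm had a size of 0.43 on the log2 scale in DRF (adjusted p = 0.00299) and 0.18 in NRF (0.414), and differed (adjusted p = 0.0103). Hspa5, which encodes BiP itself, passed in neither regimen (adjusted p = 0.0952 in DRF and 0.141 in NRF), while its rhythm difference passed (adjusted p = 0.0306). In DRF it passed with scaling to total counts (size 0.35 against 0.19, adjusted p = 0.0155), with library weights (0.0435) and with the deposited score itself on a log2 scale (0.0423). The call of the rhythm difference ended without DRF ZT4 replicate 1 (adjusted p = 0.0534), DRF ZT8 replicate 2 (0.0511) or NRF ZT20 replicate 3 (0.051), and with scaling to total counts (0.0573) or quantiles (0.0565). At ZT8 Hspa5 stood at 193, 200, 201 and 192 CPM in DRF and at 175, 174, 165 and 158 in NRF, without overlap. The difference at ZT8 passed in limma for neither Hspa5 nor Dnajc3. Since the windows were picked for the motif and the peaks were then compared, the closeness of the peaks is a description.

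Among the small HSPs, Hspb3 had the clearest rhythm. This muscle-specific partner of Hspb2 stood in DRF at 12.8, 12.6, 10.2 and 16.3 CPM at ZT0 and at 25.1, 20.2, 24.8 and 25.04 CPM at ZT12. In NRF it stood at 18.1, 15.4, 20.001 and 15.3 CPM at ZT0 and at 15.0, 14.8, 14.3 and 21.9 CPM at ZT12. Hspb3 peaked at ZT10.6 in DRF with a size of 0.67 on the log2 scale (adjusted p = 3.03e-06), against 0.28 in NRF (0.17), and the rhythms differed (adjusted p = 0.000358). Hspb8, the small HSP that works with Bag3 in clearing damaged filamin, was rhythmic in DRF (0.38 on the log2 scale, peak at ZT9.15, adjusted p = 0.0209). Its rhythm differed between regimens (adjusted p = 0.0242). Both calls ended when the ZT0 groups were left out (adjusted p = 0.112 and 0.127). Hspb2, with fractional counts, was also rhythmic in DRF (0.34 on the log2 scale, peak at ZT15.8, adjusted p = 0.00282, limma). That call stood without any single library, and the rhythm difference of Hspb2 missed the threshold (adjusted p = 0.0735, limma). Hspb1, Hspb6 and Hspb7 passed in neither regimen, with adjusted p (limma) of 0.123 to 0.688.

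Hspb7 and Hspb6 varied among libraries of the same group more than nearly all genes. Hspb7 ran from 54.3 to 957 CPM, and in the DRF ZT20 group alone from 54.3 to 678. Its SD within groups, 0.837 on the log2 scale, was above that of 99.5% of tested genes. These deviations followed the slow-fibre markers. The Pearson correlation of Hspb7 with the slow-fibre score, both as deviations from the group mean over 56 libraries, was 0.878 and Spearman's rho was 0.852 (permutation p = 1e-05 for each, the smallest that 100000 resamples can give; adjusted over 76 members, 6.9e-05 and 9.5e-05). Without the 2 libraries of most extreme score it was 0.845, and within regimens it was 0.906 in NRF and 0.848 in DRF. For Hspb6 r was 0.799, rho was 0.813 and the value without those 2 libraries was 0.773 (permutation p = 1e-05 for r).

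Of the 76 relations computed, 34 passed at an adjusted permutation p under 0.05, with 14 positive and 20 negative. Hspa2 (r = 0.761), Dnaja4 (0.75), Bag3 (0.704), Hspa9 (0.635) and Hspa1a (0.633) were on the positive side. Cct5 (r = -0.770), Cct6a (-0.689), Dnajb14 (-0.687), Hspb8 (-0.682) and Dnajc18 (-0.661) were on the negative side. Spearman's rank correlation was 0.678 for Hspa1a and -0.748 for Cct5, and r without the 2 extreme libraries was 0.606 and -0.736. Among members, 11 had r above 0.5 and 11 had r below -0.5, against 11% of all tested genes on each side. For Hspa4 r was -0.0746, rho was 0.0412 and the permutation p was 0.67. With the slow-fibre score as a covariate, an alternative added after these values were seen, all 15 members with a rhythm difference still passed, at an adjusted p of up to 0.0337. The size difference (DRF minus NRF) turned from 0.01 to -0.40 for Hspa2 and from 0.10 to -0.02 for Hspb8 on the log2 scale. The DRF rhythm of Hspa1a, at an adjusted p of 0.00859, was 0.0534 with the covariate, and that of Hspa1b moved from 0.0341 to 0.143.

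**Figure D4:**
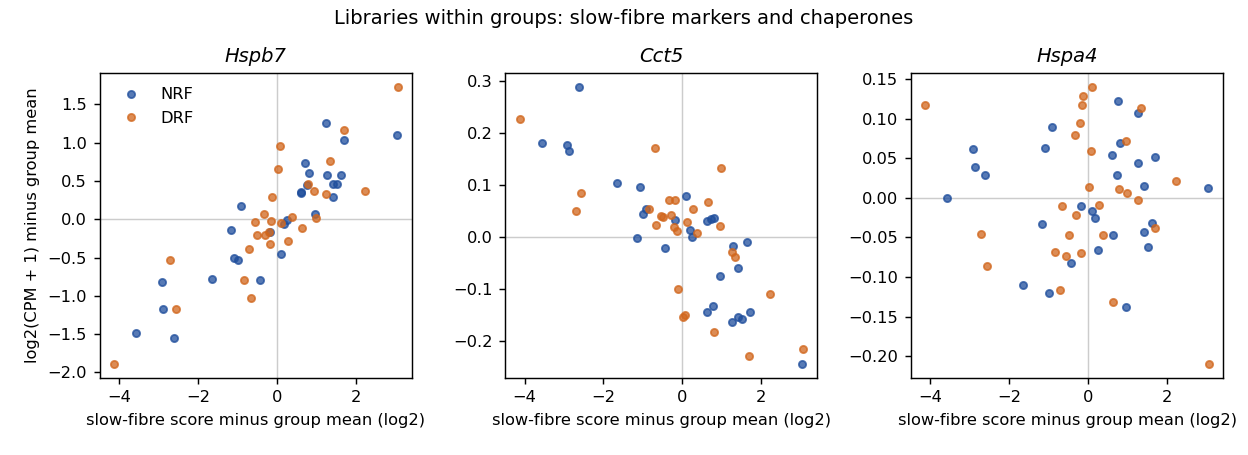
Each point is a library of NRF (blue) or DRF (orange); the x axis is its slow-fibre score (mean of 4 marker genes, log2) minus its group mean, and the y axis is log2(CPM + 1) of Hspb7, Cct5 or Hspa4 minus the group mean. Hspb7 rises with the score (r = 0.878), Cct5 falls with it (r = -0.770) and Hspa4 shows no trend (r = -0.0746).

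The CCT ring is built from 8 different subunits, and 3 of the 7 tested subunit genes were rhythmic in DRF. Cct3 passed in both regimens, with a peak at ZT22.4 in NRF (adjusted p = 0.0265) and ZT10.7 in DRF (0.046), and its rhythms differed (adjusted p = 0.00421). At ZT0 it stood at 78.2, 82.0, 83.8 and 73.2 CPM in NRF and at 65.0, 65.5, 67.4 and 67.0 CPM in DRF, without overlap. That rhythm difference stood without any single library, and ended without the ZT0 groups (adjusted p = 0.0775) or with scaling to total counts (0.0551). Its NRF rhythm ended under the same alternatives (adjusted p = 0.194 and 0.0744) and without NRF ZT0 replicate 2 (0.0524) or 3 (0.0564), NRF ZT8 replicate 2 (0.055) or NRF ZT12 replicate 4 (0.0569). Its DRF rhythm ended under 9 of the alternatives, among them leaving out the ZT0 groups (0.265), and without any of 17 DRF libraries (up to 0.0767, without DRF ZT0 replicate 1). Those were the 4 of ZT0, ZT8 replicates 1, 3 and 4, ZT12 replicate 4, the 4 of ZT16, ZT20 replicates 3 and 4, and ZT24 replicates 1 to 3. Cct5 (peak at ZT14.1, adjusted p = 0.0182) and Cct6a (peak at ZT11.0, adjusted p = 0.034) passed in DRF and not in NRF, but their rhythm differences did not pass (adjusted p = 0.41 and 0.0847). The Cct5 call ended with scaling to total counts (adjusted p = 0.165) or quantiles (0.0886), and the Cct6a call with quantiles (0.103) or without any of 7 libraries, at up to 0.0753 without DRF ZT24 replicate 1. The others of the 7 were DRF ZT0 replicate 3, DRF ZT8 replicates 1 and 4, DRF ZT20 replicate 1 and DRF ZT24 replicates 2 and 4. Cct2, Cct4, Cct7 and Cct8 passed in neither.

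Among the BAG genes, which bind HSP70, most of them as nucleotide exchange factors, Bag2 had the smallest p for the rhythm difference of all members (adjusted p = 1.48e-05). Bag2, an inhibitor of the ubiquitin ligase CHIP, stood in NRF at 25.7, 28.3, 26.0 and 28.6 CPM at ZT0 and at 21.1, 22.0, 19.3 and 22.4 CPM at ZT12. In DRF it stood at 18.3, 22.3, 23.4 and 24.2 CPM at ZT0 and at 26.9, 27.4, 25.8 and 29.1 CPM at ZT12. The order of the 2 times was reversed, and in each regimen they did not overlap. The sizes were 0.31 in NRF (peak at ZT23.8, adjusted p = 0.00216) and 0.34 on the log2 scale in DRF (peak at ZT11.2, adjusted p = 0.000305). After the move by 12 h no difference was detected (adjusted p = 0.869).

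Bag5 had fitted peaks closer together, with a DRF peak at ZT2.78 (adjusted p = 0.00207) and an NRF peak at ZT23.8 (0.0311), and differed from the moved rhythm (adjusted p = 0.000214). Its NRF call ended without any of 7 libraries, at an adjusted p of up to 0.082 without NRF ZT0 replicate 2; the 7 were the 4 of NRF ZT0, NRF ZT8 replicate 3, NRF ZT12 replicate 4 and NRF ZT24 replicate 3. It also ended with scaling to total counts (adjusted p = 0.152), without the ZT0 groups (0.561) and with the slow-fibre score as a covariate (0.0674). Bag3, the scaffold of chaperone-assisted autophagy in muscle, stood at 259, 240, 236 and 212 CPM at ZT4 in DRF and at 181, 192, 125 and 131 CPM in NRF, without overlap. Its difference at ZT4, 0.61 ± 0.195 on the log2 scale (SE), did not pass (adjusted p = 0.135; 0.0193 with library weights), and its rhythm in DRF missed the threshold (adjusted p = 0.0585). It passed without DRF ZT8 replicate 2 (adjusted p = 0.0462), DRF ZT16 replicate 2 (0.0185), DRF ZT20 replicate 1 (0.036) or DRF ZT24 replicate 2 (0.0418).

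On average over the day, 12 members differed between regimens (15.8%), against 15.9% of all genes, so that the share was that of the background. Of these 7 were higher in DRF and 5 lower (8.35% and 7.53% of all genes), and with scaling to total counts 1 of 21 was higher. Dnajc15, a J-domain protein of the mitochondrial inner membrane, was 0.18 ± 0.0315 higher on the log2 scale (SE, adjusted p = 0.000467) and kept its call under every alternative tried. At ZT12 Dnajc15 stood at 52.4, 50.6, 52.5 and 54.6 CPM in DRF and at 42.4, 44.8, 35.7 and 42.3 CPM in NRF, without overlap. Dnajb14, Dnajc4 and Dnajc8 also stood without any single library, and each lost its call once the gene-length trend was removed (adjusted p = 0.176, 0.453 and 0.0754). The count of 12 was 4 without NRF ZT20 replicate 3, 5 without DRF ZT20 replicate 1, and 7 without DRF ZT16 replicate 3, NRF ZT4 replicate 1 or NRF ZT12 replicate 3. It was 22 without NRF ZT20 replicate 4.

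At single times other than ZT4 the counts were small, and 1 of these calls, Dnaja1 at ZT24, stood without any single library. At ZT0 1 member was lower in DRF, Cct3, against 1.85% of all genes called (0.881% higher and 0.965% lower). At ZT8 0 were called in limma, with 8 at an unadjusted p under 0.05, against 0.208% of all genes (0.108% higher and 0.0998% lower). At ZT12 3 were higher and 1 lower, against 3.5% of all genes (2.15% higher and 1.36% lower). At ZT16 3 were higher and 3 lower, against 10.8% (4.02% and 6.74%). At ZT20 2 were lower, Hspa4 and Dnajc5, against 2.96% (0.715% higher and 2.25% lower). At ZT24 1 was higher and 4 lower, against 5.56% (3.5% and 2.06%). With scaling to total counts the median difference of all genes moved to -0.116 at ZT0, -0.16 at ZT12 and -0.11 at ZT16, and the counts were 6, 4 and 18. The split of higher and lower calls moved with it, from 3 and 1 to 1 and 3 at ZT12 and from 3 and 3 to 0 and 18 at ZT16. With quantile scaling the split at ZT20 was 1 higher and 0 lower, since the calls of Hspa4 (-0.24, adjusted p = 0.0559) and Dnajc5 (-0.13, adjusted p = 0.213) ended, and at ZT16 it was 1 and 5. Of the 5 calls at ZT24, Dnaja1, Dnajb14, Hsp90aa1 and Hspb3 were lower in DRF and Dnajb9 was higher (0.34 ± 0.0813, SE, adjusted p = 0.00737, ending at 0.0639 without DRF ZT24 replicate 4). The difference between ZT24 and ZT0, which mark the same clock time, passed for 0 members in either regimen in limma, with 16 in DRF and 9 in NRF at an unadjusted p under 0.05. Of all genes 0.274% passed in DRF (0.108% higher and 0.166% lower at ZT24) and 0% in NRF.

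These small counts moved with single libraries. The count at ZT0 was 0 without DRF ZT0 replicate 1 or 2 or NRF ZT0 replicate 2, and 2 without DRF ZT0 replicate 4. At ZT8 it was 1 without DRF ZT20 replicate 1. At ZT12 it was 0 without DRF ZT12 replicate 1 or 4 or NRF ZT12 replicate 3, and 2 without DRF ZT12 replicate 3 or NRF ZT12 replicate 1 or 2. At ZT16 it was 0 without DRF ZT16 replicate 3, 1 to 3 without DRF ZT16 replicate 2 or NRF ZT16 replicate 1, 2 or 4, 10 without DRF ZT24 replicate 4 or NRF ZT20 replicate 4, and 16 without DRF ZT16 replicate 4 or DRF ZT20 replicate 1. At ZT20 it was 0 without NRF ZT20 replicate 3, 1 without DRF ZT20 replicate 1 or NRF ZT20 replicate 2, 6 without DRF ZT20 replicate 2 and 11 without NRF ZT20 replicate 4. At ZT24 it was 2 without DRF ZT24 replicate 4 or NRF ZT24 replicate 3, and 3 without DRF ZT24 replicate 1 or NRF ZT24 replicate 1 or 4. The count of members differing between ZT24 and ZT0 in DRF was 2 without DRF ZT0 replicate 1, and 1 without DRF ZT20 replicate 1, DRF ZT24 replicate 2, NRF ZT12 replicate 3 or NRF ZT20 replicate 4.

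Genes that act with the chaperones without belonging to these families were taken from a list of 41, all tested. In DRF 22 of the 41 were rhythmic (53.7%, against 48.7% of all genes) and in NRF 3 (7.32%, against 15.1%), and 8 differed between regimens (19.5%, against 13.1%). Of the heat shock factor genes, which encode transcription factors of the heat response, Hsf1 and Hsf2 were rhythmic in DRF. They were picked after their values were seen, and the values of Hsf4, also on the list, are not given here. Hsf2 peaked at ZT4.83 (0.42 on the log2 scale, adjusted p = 9.45e-05) and Hsf1 at ZT15.9 (0.30, adjusted p = 0.0099), with rhythm differences at adjusted p of 0.00846 and 0.0418. With scaling to total counts the DRF rhythm of Hsf1 ended (adjusted p = 0.298), and its rhythm difference ended without any of 19 libraries, at up to 0.0739 without NRF ZT16 replicate 1. Ptges3, the HSP90 cochaperone p23, peaked in DRF at ZT3.71 (0.43 on the log2 scale). Grpel2, an exchange factor for the mitochondrial HSP70, peaked in DRF at ZT9.36 and differed between regimens (adjusted p = 0.00103).

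Fkbp5, a cochaperone of steroid receptors that glucocorticoids induce, had by far the largest fitted size on this list and was rhythmic in both regimens. It had a size of 2.92 in NRF with a peak at ZT18.0, and 2.40 on the log2 scale in DRF with a peak at ZT20.2. Its rhythm difference passed (adjusted p = 0.041), and ended without any of 23 libraries, at up to 0.0679 without DRF ZT12 replicate 3. The small HSP gene Cryab, which the symbol rule leaves out, passed in neither regimen.

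In the authors' deposited table of rhythm tests, 5 of the 83 members it lists passed at their adjusted p under 0.05 in NRF (6.02%, against 7.16% of 16119 genes). In DRF, in the authors' deposited table, 10 of 83 passed (12%, against 15.9%). The 5 in NRF were Bag2, Dnaja1, Dnajb9, Hspa8 and Hspa14, each rhythmic in NRF also by the cosine fit. The 10 in DRF were Bag2, Bag5, Dnajb4, Dnajc3, Dnajc7, Dnajc12, Hsp90aa1, Hspa4, Hspb3 and Hspd1, each also rhythmic there by that fit. The cosine fit called more, 9 in NRF and 33 in DRF. Among those that missed by the authors' adjusted p in DRF were Dnaja1 (0.29), Hspa1a (0.207), Hspa1b (0.914), Cct3 (0.317), Hsp90b1 (0.0925), Hspb8 (0.0665) and Hspa13 (0.127). The phases in the authors' deposited table were 24 h for Bag2 in NRF and 11.6 h in DRF, 20.7 h for Dnaja1 in NRF, and 6.25 h for Dnajb4, 5.14 h for Hsp90aa1, 6.51 h for Hspa4, 10.6 h for Hspb3 and 5.81 h for Hspd1 in DRF.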

How the data were processed

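RNA of 56 gastrocnemius libraries (28 per regimen) was sequenced after oligo(dT) selection and random-hexamer priming, with no strand marking named, per the labels' protocols. Tools listed without versions are RSEM, Bowtie2 and HISAT2, and builds GRCm38.p6 and mm10, per the submitters' processing notes. The values the authors deposited, headed TPM, behave as a score: each is log2(1 + counts per 1000000) divided by gene length and times a constant per library. That formula was inverted, giving estimated counts for 17443 of 19072 genes, whole for 14835, with a largest deviation of 4.49e-13; 1629 genes with under 4 values above 0 were left out. The p-values and phases of rhythm in the authors' deposited tables were taken as given. The inversion and the fits were tested on simulated data.

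CPM were taken per library size of the authors, and log2(CPM + 1) of the 12025 genes with a mean of at least 1 CPM was fitted in limma 3.58.1 (R 4.3.3; empirical Bayes with a trend) over all 14 groups, with Benjamini-Hochberg adjustment and a threshold of 0.05. The comparisons were the regimens at each time and on average, 24 h and 12 h rhythms in each regimen, their difference, and ZT24 against ZT0. The test with NRF moved by 12 h was added later. Depth was 28173234 to 36183625 reads a library, so counting error is small beside the spread between libraries for most members. Genes named were members past a test, the most abundant of each family, the heat-inducible and endoplasmic reticulum lists, and the 5 pathway genes of smallest p; others (among them Hsf1, Hsf2, Ptges3, Cryab and members near a threshold) were chosen after their values were seen. The members and lists were chosen with earlier results of these data known. Alternatives covered scaling, filter, pseudocount, library weights, gene length, the ZT0 or ZT24 groups, slow-fibre score, replicate block and each library left out.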

Additional observations from a re-analysis of the deposited data

Results flagged for a closer look

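In 21 of 238 groups of 4 libraries, 1 library lay apart from the other 3, by a test that chance alone meets in about 1 of 20 groups; the share was 8.82% over 17 genes. The groups tested were those of the 15 members with a rhythm difference and of Hspa1a and Hspa1b. In DRF at ZT20 the low library held 22.9 CPM of Hsp90aa1, 24.1 of Dnajc3 and 17.4 of Dnajc1. In DRF at ZT24 the low library held 20.3 CPM of Hsp90aa1, 28.1 of Dnajc3 and 22.7 of Dnaja1. In DRF at ZT12 the low library held 63.2 CPM of Dnajb4, 44.6 of Dnajb9 and 20.2 of Hspb3, and the high library held 52.0008 of Dnaja1 and 3.90 of Hspa1b. In DRF at ZT8 the high library held 24.5 CPM of Dnajc1 and 8.53 of Hspa1b. In DRF at ZT0 the high library held 46.4 CPM of Dnajc3, and the low library held 149 of Hspa5. In NRF the high library held 29.1 CPM of Bag2 and 457 of Hspb8 at ZT20, 56.7 of Dnajb9 at ZT8, 21.9 of Hspb3 at ZT12 and 209 of Hspd1 at ZT24. In NRF at ZT24 the low library held 41.3 CPM of Dnaja1.

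The 24 h rhythm differed between DRF and NRF, by the test of the difference in limma, for 15 members. The adjusted p was 1.48e-05 for Bag2, 3.64e-05 for Dnajb9, 0.000208 for Hspa4, 0.000274 for Dnaja1, 0.000358 for Hspb3, 0.000583 for Dnajb4 and 0.00216 for Hsp90aa1. It was 0.00421 for Cct3, 0.00846 for Hspd1, 0.0103 for Dnajc3, 0.0117 for Dnajb14, 0.0242 for Hspb8, 0.0306 for Hspa5, and 0.0465 for both Dnajc1 and Hspa2.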

How the results depend on the processing

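The number of members past the threshold stayed within 1.5 times its value under most alternatives, and no called difference in level between regimens changed sign. Over libraries left out in turn, the count ran from 4 to 22 for the average difference. At single times it ran from 0 to 2 at ZT0, 1 to 7 at ZT4, 0 to 1 at ZT8, 0 to 6 at ZT12, 0 to 16 at ZT16, 0 to 11 at ZT20 and 2 to 7 at ZT24. It ran from 5 to 12 for rhythm in NRF, 26 to 37 for rhythm in DRF, 12 to 19 for the rhythm difference and 15 to 24 with NRF moved by 12 h. For the 12 h component it ran from 1 to 7 in NRF and 1 to 9 in DRF, and for ZT24 minus ZT0 from 0 to 0 in NRF and 0 to 2 in DRF. Of the 15 rhythm-difference calls, 12 stood without any single library.

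With scaling to total counts the counts were 21 for the average, 6 at ZT0, 2 at ZT4, 18 at ZT16, 5 for the 12 h component in NRF, 1 for it in DRF and 32 with NRF moved by 12 h. With quantile scaling they were 3 at ZT0, 1 at ZT20, 3 for the 12 h component in DRF and 1 for ZT24 minus ZT0 in DRF. On log2 of the deposited value plus 1 they were 7 for the average, 0 at ZT0, 1 at ZT4, 2 at ZT16, 6 at ZT20, and 12 in NRF and 1 in DRF for the 12 h component. With library weights they were 10 at ZT0, 11 at ZT4, 2 at ZT8, 7 at ZT12, 17 at ZT16, 6 at ZT20, 14 for rhythm in NRF, 25 for the rhythm difference, 5 in NRF and 17 in DRF for the 12 h component, and 1 for ZT24 minus ZT0 in each regimen. With the gene-length trend removed they were 5 for the average and 1 at ZT20. With the slow-fibre score as a covariate, added after the data were seen, they were 2 at ZT0, 10 at ZT20, 1 for ZT24 minus ZT0 in DRF and 12 with NRF moved by 12 h. Without the ZT0 groups the 12 h component gave 0 in NRF and 2 in DRF. The cause of these changes was not tested.

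The replicate numbers do not pair the samples: same-numbered libraries deviated together with a mean correlation of -0.0166, 120 of 364 pairs were over 0.1, and 8 of 56 libraries correlated best with their own number. With the replicate number as a block the count at ZT4 was 3, and the other counts stayed within 1.5 times. With 4 libraries a group, single times carry wide errors, and members under a mean of 1 CPM were not tested.

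The size difference of a rhythm (DRF minus NRF, log2 scale) changed sign under some alternatives. With scaling to total counts it was -0.0283 for Bag2, 0.0131 for Dnaja1, 0.00416 for Dnajb14, 0.205 for Hspa5 and -0.0934 for Hsf1. With quantile scaling it was 0.0564 for Hspa5 and -0.0284 for Hspa2, and with the deposited score on a log2 scale 0.0146 for Hspa5. With library weights it was 0.0427 for Cct3, -0.00238 for Dnajc1 and -0.0479 for Hspa2, and with the gene-length trend removed -0.0785 for Dnajc1. Without the ZT0 groups it was 0.0371 for Dnaja1, -0.0525 for Hspa2 and -0.0117 for Hspb8, and with a 12 h harmonic added -0.0173 for Hspa2. With the slow-fibre score as a covariate it was -0.398 for Hspa2 and -0.0238 for Hspb8. Over libraries left out in turn it ran from -0.0613 to 0.0899 for Hspa2, turning without any of 17, and from -0.0579 to 0.0113 for Hspa5, turning without any of 4. The cause was not tested.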
